A study of Mus musculus with 6 samples.

Results

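Axon guidance ligands and their receptors were taken from the deposited tables by gene symbol, which gave 68 of 21878 genes. There were 35 ligands, made up of 20 semaphorins of classes 3 to 7, 8 ephrins, 4 netrins and 3 slits. There were 33 receptors, made up of 14 Eph receptors, 9 plexins, 2 neuropilins, 4 Robo receptors and 4 Unc5 receptors. The members were chosen with earlier results of these data known, so shares over them only describe the list. The symbol rule itself used no measured value. It leaves out other guidance receptors such as Dcc, which are given separately at the end. The measurements are bulk RNA sequencing of unsorted prefrontal cortex, with 3 mice in the Gls1_CamkIIaCre group and 3 in the control group. Gls1_CamkIIaCre mice carried CamKIIαCre and a floxed copy of the gene that gives the group its name, over a wild-type copy. Control mice were their littermates with CamKIIαCre and 2 wild-type copies, although the genotype label of the control samples reads only WT. The loss is heterozygous and mosaic, because CamKIIα drives Cre mainly in excitatory forebrain neurons and the other cells keep both copies. Age and sex are not among the labels used here.

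Axon guidance molecules steer growing axons and dendrites by attraction or repulsion at the growth cone. Slits are secreted and act through Robo receptors, netrins act through Dcc and Unc5 receptors, class 3 semaphorins act through neuropilins paired with plexins, most membrane-bound semaphorins act on plexins directly, and ephrins act on Eph receptors of contacting cells. In the adult cortex many of these genes stay expressed and are known for roles at dendritic spines and synapses, and some also act in blood vessels.

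Of the 68 genes, 66 had enough counts to be tested among 14440 genes. Slit1, Robo2, Plxna1, Epha6 and Ephb3 were higher in Gls1_CamkIIaCre cortex, by 16.1% to 23.8%. Ntn1, Robo3, Nrp1 and Ephb1 were lower, with changes between -30.3% and -17.4%. Calls rest on edgeR's quasi-likelihood test, with p-values adjusted by Benjamini-Hochberg over all tested genes and a threshold of 0.05. DESeq2 and limma voom called these same 9 members and no other. On log2(FPKM + 1) values 3 of these 9 genes remained called, namely Robo2, Ntn1 and Robo3. Leaving out Gls1_CamkIIaCre 2 left 5 members called, and leaving out control 2 left 5. The 9 called genes were 13.6% of the tested members, beside 8.24% of all tested genes. By direction, 5 members were higher, beside 3.95% of all tested genes called higher, and 4 were lower, beside 4.29% called lower. The median log2 fold change of the tested members was 0.0016, with 33 above and 33 below 0, and that of all tested genes was -0.0024. Single genes thus stood out on both sides of a median close to 0. Of the 34 tested ligands 1 was higher and 1 lower, and of the 32 tested receptors 4 were higher and 3 lower; no test of ligands against receptors was run.

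The 3 libraries of each group did not overlap for 15 members (22.7%), beside 26.7% of all tested genes. Of these 15 members, 10 were higher, beside 13.1% of all tested genes, and 5 were lower, beside 13.6% of all tested genes. The 15 were the 9 called genes and 6 that were not called, named here after their values were seen. Plxna2, Plxna3, Robo1, Sema4d and Sema4f lay higher without overlap and Plxnb3 lower. An unadjusted p under 0.05 was found for 17 members (25.8%), beside 22.4% of all tested genes. Of these 17 members, 13 lay higher, beside 11.1% of all tested genes, and 4 lay lower, beside 11.3% of all tested genes. The 4 lower ones were the called genes, and the 13 higher ones were the 5 called genes and 8 that missed the adjusted threshold.

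**Figure D1:**
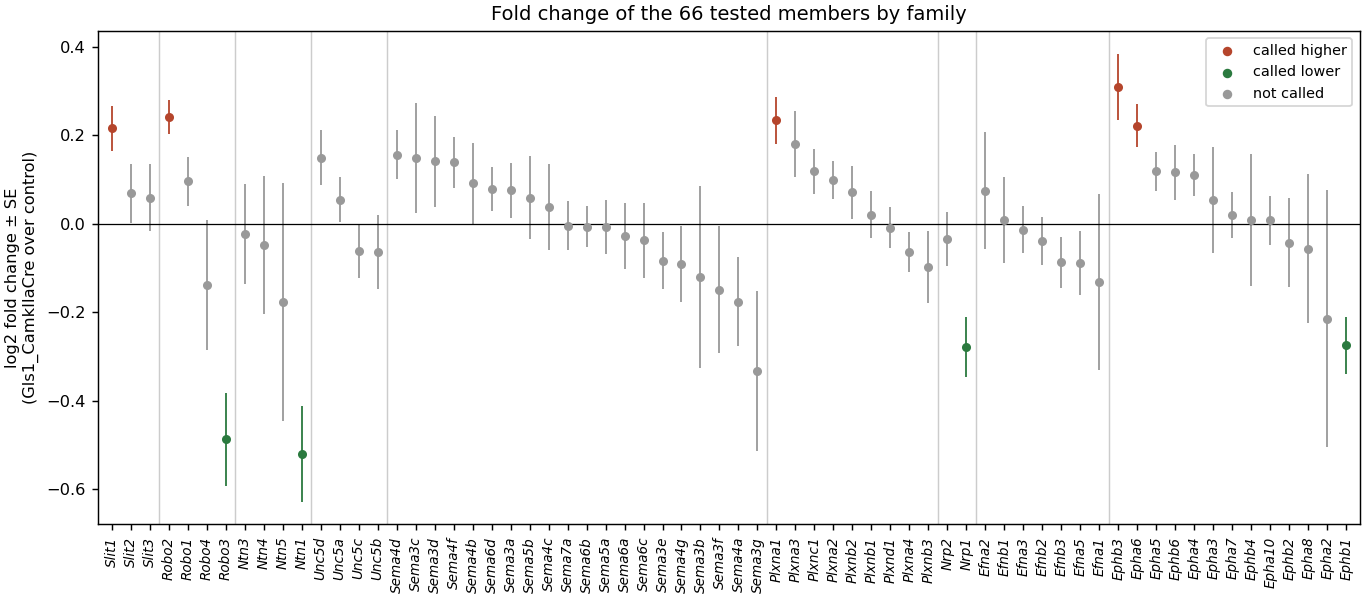
Log2 fold change of Gls1_CamkIIaCre over control (vertical axis) for the 66 tested members, grouped by family along the horizontal axis, with bars for the standard error. Called genes stand at both ends, with Ephb3 at 0.31 and Ntn1 at -0.52, and the median lies at 0.0016.

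Depth was close to even, with 17987807 to 19330961 counts per library, and the common biological coefficient of variation was 4.75%. Markers of other tissue and cell types differed between the groups. Summed CPM (counts scaled to library size with TMM factors) of 19 striatum markers was 580.0, 581 and 648 in Gls1_CamkIIaCre libraries, against 1260.2, 2037 and 1448 in control libraries, and 16 of the 19 were called lower. The sum of 13 meningeal fibroblast markers was 184 to 220.0 CPM in Gls1_CamkIIaCre and 247 to 269 CPM in control (8 called lower), and that of 10 mural cell markers was 247 to 269.5 CPM in Gls1_CamkIIaCre and 284 to 326 CPM in control (5 called lower). Of 14 oligodendrocyte markers 8 were called lower, and their sum overlapped, at 3290 to 3749 CPM in Gls1_CamkIIaCre and 3635 to 4311 CPM in control. Sums of 14 deep cortical layer markers did not overlap, at 969 to 976 CPM in Gls1_CamkIIaCre and 1042 to 1079 CPM in control, with 2 called higher and 4 lower. Sums of interneuron, oligodendrocyte precursor and microglia markers were also lower in Gls1_CamkIIaCre without overlap, and those of astrocyte and endothelial markers overlapped. Excitatory neuron markers were present in every library, with 1 of 9 called higher. They summed to 6218 to 6948 CPM in Gls1_CamkIIaCre and 6097 to 6449.6 CPM in control. No marker of these lists was at 0 in all libraries. In bulk tissue, fewer cells of a type and less RNA per cell cannot be told apart.

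Levels were compared between genes in FPKM, which scales for gene length. Members ranged in mean FPKM over the 6 libraries from 0.0252 for Epha1, an Eph receptor, to 33.1 for Sema7a, a membrane-anchored semaphorin. The highest of the Eph family was Ephb6, a receptor without kinase activity, at 29.2 FPKM, and the highest Unc5 receptor was Unc5a at 21.4 FPKM. Efnb3, a transmembrane ephrin, led the ephrins at 17.8 FPKM, and Plxna2 led the plexins at 12.4 FPKM. Robo2 led the Robo receptors at 9.68 FPKM, Slit1 led the slits at 6.82 FPKM, Ntn4 led the netrins at 3.74 FPKM, and Nrp1 led the neuropilins at 3.65 FPKM. The median member stood at 3.87 FPKM. Summed over all 68 genes, FPKM lay between 426 and 429 in Gls1_CamkIIaCre libraries and between 419 and 437 in control libraries, so these sums overlapped. In CPM, the measure used to compare groups, the sums did not overlap. They were 3590 to 3639 CPM in Gls1_CamkIIaCre and 3366 to 3583 CPM in control. Epha1 and Efna4 were not tested. Epha1 had 2, 1 and 4 counts in Gls1_CamkIIaCre and 4, 3 and 1 counts in control, and Efna4 had 6, 10 and 7 counts in Gls1_CamkIIaCre and 4, 6 and 9 counts in control.

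**Figure D2:**
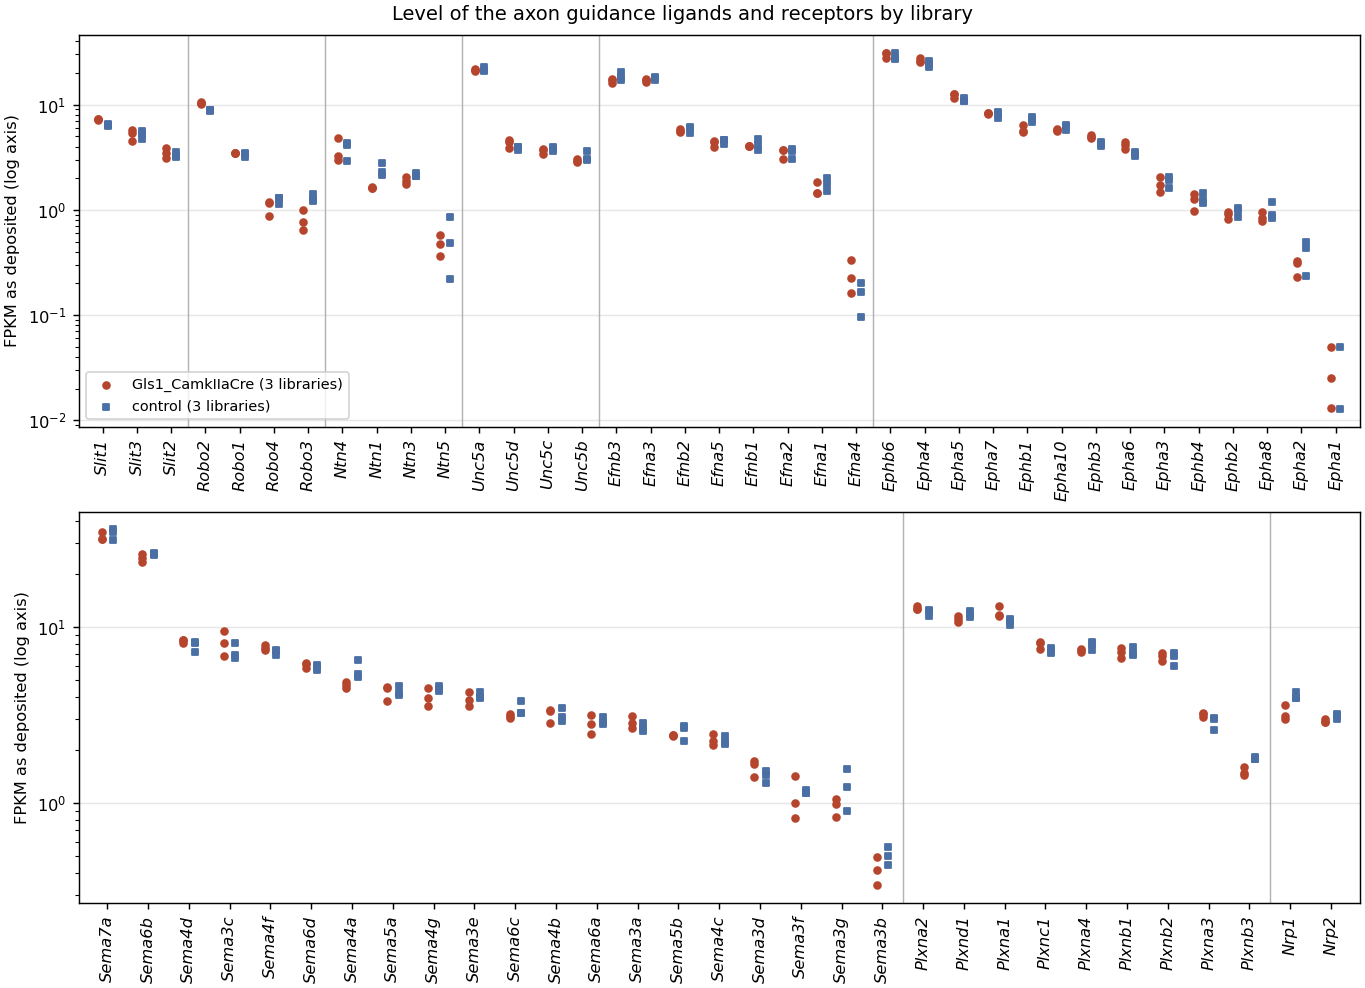
Deposited FPKM (log axis) of all 68 members in each library, with 3 Gls1_CamkIIaCre libraries as circles left of 3 control libraries as squares, grouped by family and ordered by level. Sema7a stands highest at a mean of 33.1 FPKM and Epha1 lowest, and 1 Epha1 value listed at 0 cannot be drawn on the log axis.

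Among slits and their receptors, the ligand Slit1 and the receptor Robo2 were higher in Gls1_CamkIIaCre cortex and Robo3 was lower. Slit1, a secreted repellent, had 72.9, 76.5 and 75.5 CPM in Gls1_CamkIIaCre, against 63.2, 62.2 and 68.4 CPM in control. All 3 Gls1_CamkIIaCre libraries lay above all 3 control libraries. Means were 75.0 ± 1.84 CPM in Gls1_CamkIIaCre and 64.6 ± 3.33 CPM in control (SD, n = 3 each), a log2 fold change of 0.22 ± 0.051 (SE, edgeR adjusted p = 0.0122). The call was lost without Gls1_CamkIIaCre 2, control 1 or control 2 (edgeR adjusted p between 0.0501 and 0.0733). Slit2 and Slit3, the other slits, had log2 fold changes of 0.07 and 0.06 and were not called.

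Robo2, a repulsive slit receptor of neurons, had 214, 211 and 210.3 CPM in Gls1_CamkIIaCre, against 176, 181 and 181 CPM in control. It had the smallest adjusted p of the members: the libraries of each group lay close together and the groups were far apart. Means were 212 ± 2.16 CPM in Gls1_CamkIIaCre and 179.6 ± 2.90 CPM in control (SD, n = 3 each), with a log2 fold change of 0.24 ± 0.038 (SE, edgeR adjusted p = 0.000866). Robo2 stayed called in all 19 alternative settings. Robo3, known in the mouse for its role in commissural axons crossing the midline, had 11.4, 12.6 and 13.9 CPM in Gls1_CamkIIaCre, against 17.6, 15.6 and 20.0 CPM in control. Again the groups did not overlap, here with every Gls1_CamkIIaCre library below every control library. Means were 12.6 ± 1.26 CPM in Gls1_CamkIIaCre and 17.7 ± 2.23 CPM in control (SD, n = 3 each), a log2 fold change of -0.49 ± 0.105 (SE, edgeR adjusted p = 0.00649). In FPKM, Robo3 stood at 0.646, 0.764 and 0.995 in Gls1_CamkIIaCre and 1.40, 1.21 and 1.26 in control. Robo1 had a log2 fold change of 0.10 and Robo4, a receptor of endothelial cells, of -0.14, and neither was called.

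Robo2 and Robo3 belong to the same family and moved in opposite directions, so a window around an annotated transcript start of each is shown. Robo2 lies on the minus strand of chr16:73891976-75447443 and Robo3 on the minus strand of chr9:37416045-37433436 (GRCm38.p6). The RefSeq windows run from 250 bases before to 50 bases after the start of a RefSeq transcript, at chr16:75447244-75447543 for the most upstream of the 3 Robo2 windows and at chr9:37433126-37433425 for Robo3. These transcript starts lie 150 bases (Robo2) and 261 bases (Robo3) inside the 5′ end of the gene's span. Both are printed 5′ to 3′ on the gene's strand, and capitals mark matches on either strand to 3 short motifs: the GC box GGGCGG, the E-box CACGTG and the cAMP response core TGACG.
Robo2: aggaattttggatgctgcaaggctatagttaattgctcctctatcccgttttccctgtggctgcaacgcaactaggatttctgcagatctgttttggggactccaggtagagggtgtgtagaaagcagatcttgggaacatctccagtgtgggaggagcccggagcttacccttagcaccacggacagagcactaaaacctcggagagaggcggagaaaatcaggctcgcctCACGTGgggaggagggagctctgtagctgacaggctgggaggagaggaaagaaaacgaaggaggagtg
Robo3: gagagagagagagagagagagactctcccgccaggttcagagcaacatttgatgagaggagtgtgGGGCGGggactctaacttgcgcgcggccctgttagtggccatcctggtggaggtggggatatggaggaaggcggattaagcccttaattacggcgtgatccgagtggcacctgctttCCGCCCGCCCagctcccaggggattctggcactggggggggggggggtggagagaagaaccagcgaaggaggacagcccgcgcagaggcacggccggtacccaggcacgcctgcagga
The Robo2 window shown holds 1 E-box, 9 CpG dinucleotides and 53.3% G and C. The other Robo2 windows hold 5 and 17 CpG dinucleotides, 45.0% and 65.0% G and C, and none of the motifs. The Robo3 window holds 3 GC boxes, of which a pair overlaps, with 17 CpG dinucleotides and 63.3% G and C. Which start is used in these samples was not measured.

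Of the netrins and Unc5 receptors, Ntn1 was called and the others were not. Ntn1, the secreted founding netrin of vertebrates and a ligand of Dcc and Unc5 receptors, had 9.75, 9.86 and 10.1 CPM in Gls1_CamkIIaCre, against 13.3, 16.3 and 13.1 CPM in control. The Gls1_CamkIIaCre libraries were nearly equal and all lay below control, where control 2 was highest. Means were 9.91 ± 0.193 CPM in Gls1_CamkIIaCre and 14.2 ± 1.81 CPM in control (SD, n = 3 each), with a log2 fold change of -0.52 ± 0.108 (SE, edgeR adjusted p = 0.00511), the largest among the called members. Ntn1 stayed called in all 19 alternative settings, without control 2 included. Ntn3, Ntn4 and Ntn5 were not called, with log2 fold changes between -0.18 and -0.02. Ntn4, which is found in basement membranes, had 13.7, 9.64 and 9.28 CPM in Gls1_CamkIIaCre and 12.5, 12.1 and 9.09 CPM in control, so its groups overlapped.

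None of the 4 Unc5 receptors, which turn netrin signals to repulsion, was called by edgeR, DESeq2 or limma voom. An unadjusted p under 0.05 by edgeR was found for 1 of the 4, beside 22.4% of all tested genes. Log2 fold changes of the 4 receptors lay between -0.06 and 0.15. Unc5d, also a receptor of FLRT proteins, came nearest, with 53.8, 59.6 and 64.7 CPM in Gls1_CamkIIaCre and 54.5, 51.6 and 54.5 CPM in control (log2 fold change 0.15 ± 0.061 SE, edgeR adjusted p = 0.145). Its groups overlapped through Gls1_CamkIIaCre 1, and it was called without that library (log2 fold change 0.22, adjusted p = 0.0474). Unc5a had 93.3, 94.5 and 97.8 CPM in Gls1_CamkIIaCre and 87.9, 87.8 and 99.3 CPM in control, which overlapped (adjusted p = 0.588).

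No semaphorin was called by edgeR, DESeq2 or limma voom. By edgeR, 2 of the 20 had an unadjusted p under 0.05, beside 22.4% of all tested genes. The 20 semaphorins had log2 fold changes between -0.33 and 0.16, 9 above and 11 below 0, and a median of -0.01. Sema4d, a membrane-bound ligand of Plxnb1, had the smallest p of them, with 67.8, 66.5 and 69.0 CPM in Gls1_CamkIIaCre and 62.5, 56.1 and 63.9 CPM in control. The groups did not overlap, but the log2 fold change of 0.16 ± 0.054 (SE) did not pass (edgeR adjusted p = 0.0834). Sema7a, the most abundant member per length, had 131, 135 and 143 CPM in Gls1_CamkIIaCre and 124, 139.6 and 147 CPM in control, which overlapped. Over the 7 class 3 semaphorins, which are secreted, the median log2 fold change was -0.08, with 3 above and 4 below 0.

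Among semaphorin receptors, Plxna1 was higher and Nrp1 lower. Plxna1, a class A plexin that forms receptors for class 3 semaphorins with neuropilins, had 126, 124 and 142 CPM in Gls1_CamkIIaCre, against 112, 106 and 116 CPM in control. The groups did not overlap, and library 3 was highest in both. Means were 131 ± 10.2 CPM in Gls1_CamkIIaCre and 111 ± 4.94 CPM in control (SD, n = 3 each), a log2 fold change of 0.23 ± 0.053 (SE, edgeR adjusted p = 0.00958). The call was lost without control 2 (adjusted p = 0.0589). An antisense gene, Gm26811, shares 970 of the 9054 annotated exon bases of Plxna1. The use of strand in counting is not given, so reads within the shared bases cannot be told apart. Of the other 8 plexins none was called, with log2 fold changes between -0.10 and 0.18. Plxna2 had 202, 204 and 215 CPM in Gls1_CamkIIaCre and 183, 196 and 201 CPM in control, which did not overlap (log2 fold change 0.10 ± 0.044 SE, edgeR adjusted p = 0.181).

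Nrp1, a co-receptor of Sema3a that also binds vascular endothelial growth factor in blood vessels, had 34.8, 31.8 and 29.6 CPM in Gls1_CamkIIaCre, against 37.7, 37.9 and 40.8 CPM in control. Every Gls1_CamkIIaCre library lay below every control library. Means were 32.0 ± 2.60 CPM in Gls1_CamkIIaCre and 38.8 ± 1.74 CPM in control (SD, n = 3 each), with a log2 fold change of -0.28 ± 0.068 (SE, edgeR adjusted p = 0.0143). The call was lost without Gls1_CamkIIaCre 2, Gls1_CamkIIaCre 3 or control 3 (adjusted p between 0.0542 and 0.0734). Nrp2, the co-receptor for Sema3f, had 34.5, 37.0 and 35.5 CPM in Gls1_CamkIIaCre and 35.5, 36.2 and 38.0 CPM in control, which overlapped (log2 fold change -0.03).

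Of the 13 tested Eph receptors 3 were called, beside 8.24% of all tested genes. No ephrin was called by edgeR, DESeq2 or limma voom. By edgeR, 0 ephrins had an unadjusted p under 0.05, beside 22.4% of all tested genes. The 7 tested ephrins had log2 fold changes between -0.13 and 0.07. Efnb3 had both the highest level and the smallest p of them, with 91.5, 94.3 and 85.9 CPM in Gls1_CamkIIaCre and 94.7, 105 and 88.6 CPM in control, which overlapped (edgeR adjusted p = 0.398). Of the receptors, Epha6 and Ephb3 were higher and Ephb1 was lower in Gls1_CamkIIaCre.

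Epha6, a receptor of ephrin-A ligands, had 144, 153 and 133 CPM in Gls1_CamkIIaCre, against 117, 125 and 126 CPM in control, with no overlap. Means were 143 ± 9.75 CPM in Gls1_CamkIIaCre and 123 ± 4.70 CPM in control (SD, n = 3 each), a log2 fold change of 0.22 ± 0.049 (SE, edgeR adjusted p = 0.00816). The call was lost without Gls1_CamkIIaCre 2 (adjusted p = 0.0843). The length implied by the ratio of counts to FPKM was 6.67 times the annotated exon length for Epha6, beside a median of 1.11 over tested genes, so its level per length is uncertain. Only 0.372% of tested genes had a higher ratio. Epha6 was not called when fold changes were corrected for that implied length (log2 fold change 0.13, adjusted p = 0.108), and was called when the annotated exon length was used (0.24, adjusted p = 0.0074).

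Ephb3, a receptor of ephrin-B ligands, had 22.5, 22.8 and 24.1 CPM in Gls1_CamkIIaCre, against 18.4, 18.4 and 19.3 CPM in control. The groups were well apart and each was tight. Means were 23.1 ± 0.854 CPM in Gls1_CamkIIaCre and 18.7 ± 0.509 CPM in control (SD, n = 3 each), with a log2 fold change of 0.31 ± 0.075 (SE, edgeR adjusted p = 0.0144), the highest of the called members. The call was lost without Gls1_CamkIIaCre 2, Gls1_CamkIIaCre 3 or control 2 (adjusted p between 0.0523 and 0.0550). Ephb1, which also binds ephrin-B ligands, had 34.2, 38.8 and 34.2 CPM in Gls1_CamkIIaCre, against 41.1, 45.5 and 43.1 CPM in control. The highest Gls1_CamkIIaCre library lay below the lowest control library. Means were 35.7 ± 2.68 CPM in Gls1_CamkIIaCre and 43.2 ± 2.20 CPM in control (SD, n = 3 each), a log2 fold change of -0.27 ± 0.065 (SE, edgeR adjusted p = 0.0122). The call was lost without Gls1_CamkIIaCre 1 or control 2 (adjusted p between 0.0624 and 0.0752). Of the remaining 10 tested Eph receptors none was called, with log2 fold changes between -0.22 and 0.12. Ephb6 had 116, 133 and 131 CPM in Gls1_CamkIIaCre and 112, 111 and 128 CPM in control, which overlapped (log2 fold change 0.12, edgeR adjusted p = 0.300). It was called without control 3 (log2 fold change 0.19, adjusted p = 0.0424).

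Ephb3 and Ephb1 bind the same class of ligand and moved in opposite directions, and windows around their transcript starts are shown for the same reason as those of the Robo receptors. Ephb3 lies on the plus strand of chr16:21204620-21223309 and Ephb1 on the minus strand of chr9:101922128-102354693 (GRCm38.p6). The RefSeq windows are chr16:21204545-21204844 for Ephb3 and chr9:102354644-102354943 for Ephb1, printed 5′ to 3′ with the same motifs in capitals. The transcript start lies 175 bases inside the 5′ end of the span for Ephb3 and at that end for Ephb1.
Ephb3: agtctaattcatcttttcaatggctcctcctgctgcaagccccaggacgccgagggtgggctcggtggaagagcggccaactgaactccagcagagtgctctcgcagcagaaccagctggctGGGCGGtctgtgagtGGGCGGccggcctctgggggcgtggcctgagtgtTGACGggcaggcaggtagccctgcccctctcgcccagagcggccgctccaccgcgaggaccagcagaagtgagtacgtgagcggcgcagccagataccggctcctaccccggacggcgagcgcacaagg
Ephb1: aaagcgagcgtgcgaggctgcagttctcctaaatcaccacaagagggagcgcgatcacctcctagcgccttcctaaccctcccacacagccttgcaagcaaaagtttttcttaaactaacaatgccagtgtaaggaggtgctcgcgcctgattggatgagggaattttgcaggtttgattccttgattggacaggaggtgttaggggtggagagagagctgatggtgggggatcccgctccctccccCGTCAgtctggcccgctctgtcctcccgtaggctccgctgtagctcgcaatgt
The Ephb3 window holds 2 GC boxes, 1 TGACG, 23 CpG dinucleotides and 66.7% G and C. The Ephb1 window holds 1 TGACG, read on the other strand as CGTCA, no GC box, 14 CpG dinucleotides and 55.7% G and C. RefSeq windows were found for 59 of the 68 members, 75 windows in all. A GC box was in 70.7% of the members' windows and in 35.7% of all 32851 windows, an E-box in 6.67% of the members' and 7.15% of all windows, and TGACG in 13.3% of the members' and 20.8% of all windows. Median G and C content was 64.3% in the members' windows and 52.7% in all windows, and the median number of CpG dinucleotides was 19 in the members' windows and 7 in all windows. A motif match describes the letters of the window and not binding.

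**Figure D3:**
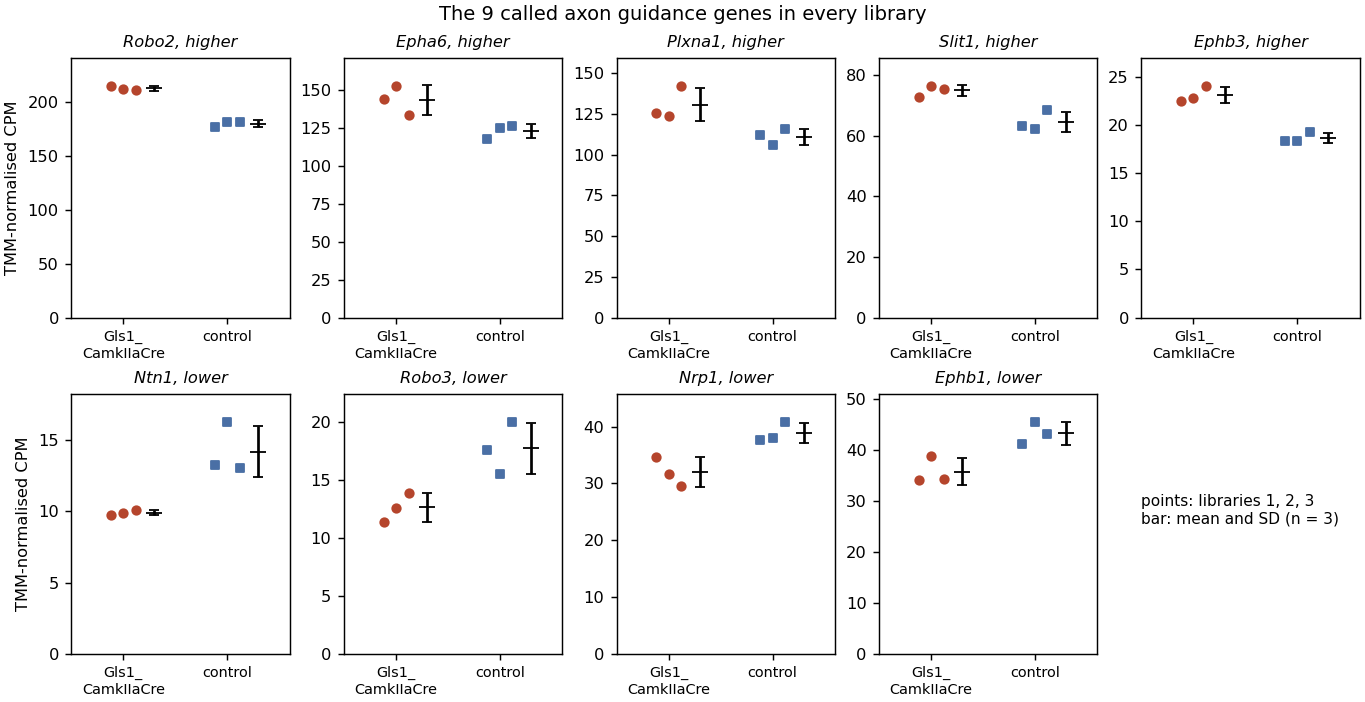
TMM-normalised CPM (vertical axes, from 0) of the 9 called members in each library, with Gls1_CamkIIaCre libraries left of control libraries and bars for the mean and SD (n = 3 each). In all 9 panels the groups do not overlap, from Robo2 at means of 212 CPM in Gls1_CamkIIaCre and 179.6 CPM in control to Ntn1 at 9.91 CPM in Gls1_CamkIIaCre and 14.2 CPM in control.

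All 4 lower members lay lower in every Gls1_CamkIIaCre library than in every control library. So did the summed markers of striatum, mural cells, meningeal fibroblasts, deep cortical layers, interneurons, oligodendrocyte precursors and microglia. Within the controls their order differed. The interneuron and microglia sums were highest in control 1. The other sums named, and that of oligodendrocyte markers, were highest in control 2, as were Ntn1 and Ephb1. Robo3 was at its lowest control value in control 2, and Robo3 and Nrp1 were highest in control 3. Relative to the mean of the 6 libraries, the striatum marker sum spread further than any of the 4 genes. The part of these cell types in the lower members was not tested. The 5 higher members lay beside excitatory neuron marker sums that overlapped between the groups and upper cortical layer sums of 1901 to 2089.9 CPM in Gls1_CamkIIaCre and 1819.6 to 1943 CPM in control, with 4 of 12 upper layer markers called higher and 3 lower, and the part of these was not tested either.

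**Figure D4:**
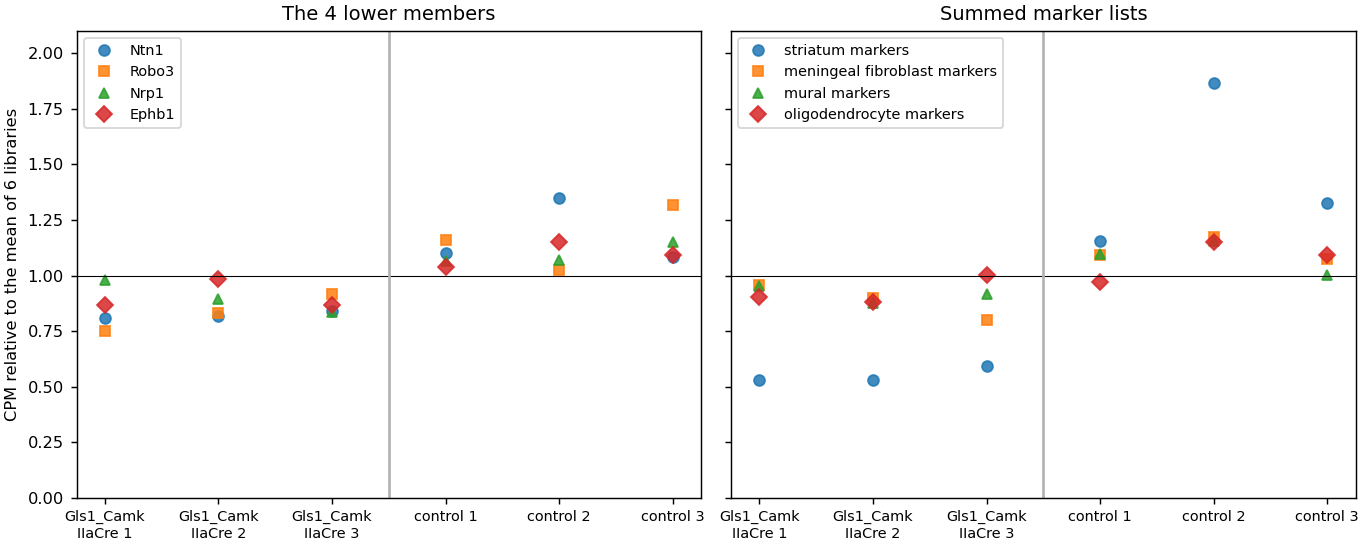
CPM relative to the mean of the 6 libraries (vertical axis) in each library, for the 4 lower members on the left and for 4 summed marker lists on the right, with Gls1_CamkIIaCre libraries left of control libraries. All 4 marker sums drawn, Ntn1 and Ephb1 are highest in control 2, where striatum markers reach 2037 CPM, while Robo3 has its lowest control value there at 15.6 CPM and Nrp1 is highest in control 3. Interneuron and microglia sums, highest in control 1, are not drawn.

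Many of the members are long genes, but spans differed between families. The median span of all 68 members, the untested ones included, was 45.2 kb, beside 25.3 kb for all tested genes. It was 69.0 kb for the receptors, 29.0 kb for the ligands and 9.88 kb for the ephrins among them. Of the 66 tested members 31 lay in the fifth of tested genes with the longest spans, from 79.5 to 2390.4 kb. In that longest group 8.61% of all genes were called higher and 3.85% lower, and its members gave 3 higher (Robo2, Epha6 and Slit1) and 3 lower (Ntn1, Nrp1 and Ephb1). In the group of shortest spans, up to 8.54 kb, 1.84% of all genes were called higher and 7.11% lower, and its 2 tested members were not called. Over all genes, the median log2 fold change was -0.06, -0.02, -0.005, 0.02 and 0.03 from the shortest to the longest group. Robo2 spans 1556 kb and Robo3 17.4 kb, and Ephb3 spans 18.7 kb and Ephb1 433 kb. The gene that was higher in Gls1_CamkIIaCre was the longer of the pair for the Robo receptors and the shorter for the EphB receptors. The part of span in these results was not tested.

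**Figure D5:**
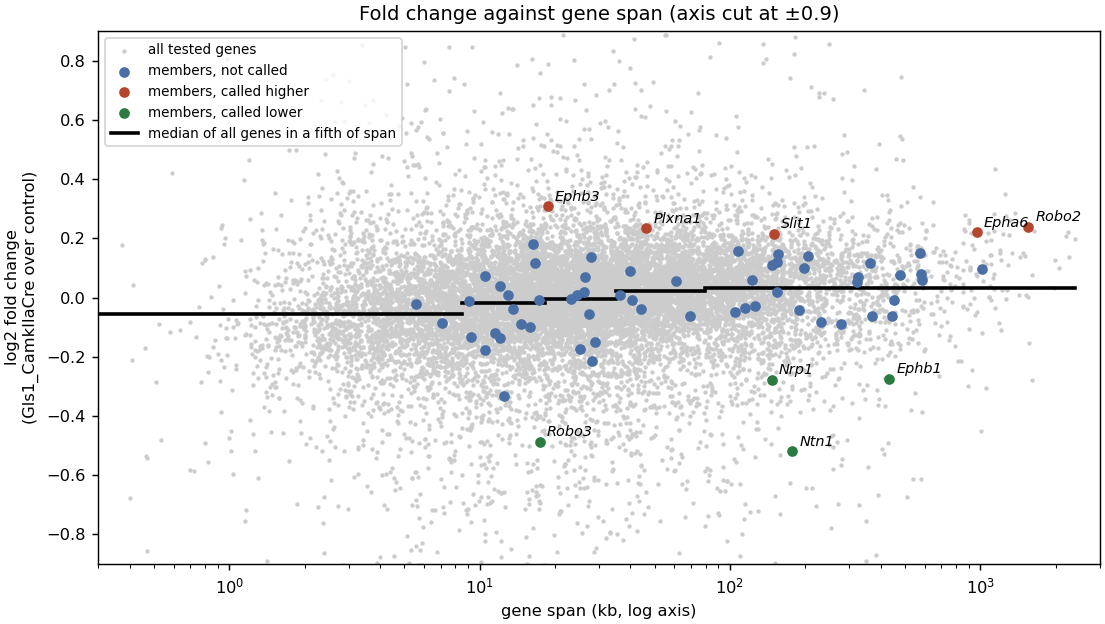
Log2 fold change of Gls1_CamkIIaCre over control (vertical axis) against gene span in kb (log axis), with all tested genes in grey, members in colour and black lines for the median of all genes in 5 groups of equal size. The black lines run from -0.06 at short spans to 0.03 at long spans, and called members of long span lie on both sides of 0.

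Genes that work with these ligands and receptors were examined in 6 lists of co-receptors, effectors and other guidance genes, 106 genes in all. Of these, 14 (13.2%) were higher and 6 (5.66%) lower in Gls1_CamkIIaCre, beside 3.95% and 4.29% of all tested genes, and the median log2 fold change was 0.05, beside -0.0024 over all tested genes. The lists were chosen with earlier results of these data known, so these shares only describe the lists. DESeq2 called 15 of the 106 genes and limma voom 17, and Lrrc4, Lrrc4b and Arhgef15 passed in neither. The 20 calls came to 12 without Gls1_CamkIIaCre 1, 6 without Gls1_CamkIIaCre 2 and 7 without control 2, and to 4 on log2(FPKM + 1). A list of 12 other netrin and repulsive guidance genes held receptors and also ligands such as Ntng1, Rgma and Draxin. In it 4 genes were higher: Dscam, a netrin receptor and adhesion molecule, at a log2 fold change of 0.25, and the netrin-G ligand family genes Lrrc4c at 0.26, Lrrc4 at 0.15 and Lrrc4b at 0.13. Dcc, the attractive netrin receptor, was at 0.04 (edgeR adjusted p = 0.808) and its relative Neo1 at 0.11 (adjusted p = 0.154).

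Among 22 semaphorin co-receptors and effectors, 6 were higher and 2 lower, beside 3.95% and 4.29% of all tested genes. The 6 of smallest p were Nrcam at a log2 fold change of 0.20, Farp1 at 0.20, Rnd1 at 0.32 and L1cam at 0.18, which were higher, and Dpysl2 at -0.17 and Cntn2 at -0.19, which were lower. Nrcam, L1cam and Cntn2 are cell adhesion molecules of axons, Farp1 and Rnd1 act on small GTPases below plexins, and Dpysl2 (CRMP2) carries the Sema3a signal to microtubules. Among 20 Slit-Robo effectors and partners, Srgap3 was higher at 0.15, and Srgap1 at -0.49 and Gpc1 at -0.21 were lower. Srgap1 and Srgap3 are GTPase-activating proteins that bind Robo receptors, and Gpc1 is a heparan sulfate proteoglycan.

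Among 20 Eph-ephrin effectors, the exchange factors Kalrn at a log2 fold change of 0.20 and Itsn1 at 0.13 were higher, and Arhgef15 at -0.29 was lower. Of 20 growth cone actin effectors, Pak2, a kinase downstream of Rac, was lower at -0.20. Of 12 Wnt and hedgehog guidance genes, Celsr3, an atypical cadherin needed for axon tracts in the mouse, was higher at 0.19. The deposited annotation placed 63 of the 68 members in the KEGG axon guidance pathway. Of its 112 other genes 109 were tested, and 7 (6.42%) were higher and 7 (6.42%) lower, beside 3.95% and 4.29% of all tested genes. Their median log2 fold change was 0.04, beside -0.0024 over all tested genes.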

How the data were processed

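Raw counts of reads per gene were deposited by the authors, beside FPKM values (scaled for gene length and depth) of the same genes and libraries. Per the labels' protocols, libraries were made from TRIzol-extracted total RNA with the SMARTER mRNA-Seq kit. The submitters' processing notes name the build GRCm38 (mm10). For aligner, counter, FPKM tool and strand use, the entry is not given in the sources used here.

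All 6 libraries entered the test on counts, edgeR 4.0.16 under R 4.3.3 (TMM factors, filterByExpr, robust quasi-likelihood fit, no covariate), two-sided and with Benjamini-Hochberg adjustment over 14440 genes. Fold changes are Gls1_CamkIIaCre over control on the log2 scale, and the SE is the fold change over the root of the F statistic. CPM compares groups and FPKM compares genes. Libraries held 17987807 to 19330961 counts, and values of genes with few counts are less precise. Within a group, the chi-square per degree of freedom between libraries was 2.27 to 4.14, above sampling noise, so none looked like a copy of another library. This check cannot tell separate mice from separate preparations of the same RNA. The labels name 3 mice per group.

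Alternatives were DESeq2 1.42.0, limma 3.58.1 voom, 2 other scalings, 2 other count filters, a non-robust fit, the replicate number as a block, corrections for gene length (spline, 4 degrees of freedom), limma on log2(FPKM + 1) and log2(FPKM + 0.1), other thresholds, and leaving out each library. The correction with GENCODE M21 exon length was chosen after seeing the data. Scripts were tested on simulated data.

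Members and lists were chosen with earlier results of these data known. Named genes are every called member and, per family, the one of highest FPKM and the one of smallest p, and in the other lists every called gene or, above 6, the 6 of smallest p. The level of the floxed gene is not reported here. Promoter windows come from RefSeq (GRCm38.p6), and gene overlaps from GENCODE M21.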

Additional observations from a re-analysis of the deposited data

How the results depend on the processing

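Of the 9 called members, Robo2 and Ntn1 stayed called in all 19 alternatives, and Robo3 in all but log2(FPKM + 0.1) (adjusted p = 0.0521). The count of 9 was the same with DESeq2, limma voom, the other scalings, the other filters and the non-robust fit. It moved to 3 (Robo2, Ntn1 and Robo3) on log2(FPKM + 1), to 2 on log2(FPKM + 0.1), to 5 at an adjusted p under 0.01, and to between 5 and 10 when 1 library was left out, with 5 without Gls1_CamkIIaCre 2 and without control 2. Over all genes the count of 1190 moved to 672 on log2(FPKM + 1), 733 on log2(FPKM + 0.1), 1862 at an adjusted p under 0.1, 402 at one under 0.01, and between 415 and 1098 without 1 library (415 without Gls1_CamkIIaCre 2, 635 without control 2, 763 without control 1, 778 without Gls1_CamkIIaCre 1). The count of 20 other guidance pathway genes moved to 4 on log2(FPKM + 1), 5 on log2(FPKM + 0.1), 13 with GENCODE exon length, 5 at an adjusted p under 0.01, and between 6 and 20 without 1 library. The members' median moved to -0.043 on log2(FPKM + 1) and -0.054 on log2(FPKM + 0.1), and between -0.010 and 0.026 without 1 library. FPKM sums per library were lower in Gls1_CamkIIaCre (238920 to 243140) than in control (249600 to 252270). Of all calls 48.0% were higher, and 36.4% with upper-quartile factors, 18.2% and 17.2% on the FPKM scales, 56.8% with the length correction, 58.4% with GENCODE exon length and 62.5% with block and length together. Among the 8 uncalled members named by the rule, fold changes that changed sign were those of Ntn4 (0.0056 with the length correction, 0.0041 with block and length, -0.25 to 0.055 without 1 library), Sema7a (0.031, 0.032, 0.043 with GENCODE exon length, -0.070 to 0.050 without 1 library) and Unc5a (-0.020 and -0.021 on the FPKM scales). Whether replicate numbers pair the samples was not settled. Deviations of same-numbered libraries correlated at 0.147, -0.035 and 0.165, and those of other pairs between -0.191 and 0.063. The pairs numbered 1 and 3 correlated highest, while Gls1_CamkIIaCre 2 correlated best with control 1. With the replicate block, 10 members (Sema4d added, adjusted p = 0.0399), 28 pathway genes and 1758 genes were called, and 12 members with block and length (Ephb6, Sema4a and Sema4d added). The cause of these shifts was not tested.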

Other observations

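The ratio of the authors' deposited counts to FPKM implied a length of 35257 bases for Epha6, against 5289 annotated exon bases. The same ratio of implied to annotated length was 2.19 for Ntn5, 2.16 for Robo3 and 2.11 for Efnb2, and the median over the tested members was 1.09.

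Some members share exon bases with another annotated gene. For Ephb1 it is the lincRNA Gm26846 on the opposite strand (152 bases), for Epha6 the antisense gene Gm9017 (107 bases) and for Nrp1 the microRNA gene Mir1903 (80 bases). Robo2, Robo3, Slit1, Ntn1 and Ephb3 had no such overlap.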
